A study of Mus musculus with 39 samples.

Results

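The comparison described here asks, for every gene, whether astrocytes of stress-susceptible mice depart from controls by the same amount in the NAC libraries as in the PFC libraries. It is an interaction contrast, the susceptible minus control difference in NAC less the susceptible minus control difference in PFC, and it used 27 of the 39 libraries of the series, grouped by their titles. NAC contributed 7 control and 8 susceptible libraries, and PFC contributed 6 control and 6 susceptible libraries. All mice were male. The susceptible mice had gone through chronic social defeat stress, a procedure of repeated attacks by a larger aggressor after which mice are sorted by social behaviour, and the controls carry the treatment label Control. No strain, age or genotype is given in the labels used here. Cells were isolated with magnetic beads against ACSA-2, a surface epitope of the sodium pump subunit Atp1b2, from freshly punched tissue. The protocol text names nucleus accumbens tissue for every library, whereas the tissue label of the 12 PFC libraries in this contrast reads PFC, an abbreviation the labels do not spell out. Each library has its own mouse number, and no label says whether a NAC and a PFC library with consecutive numbers share an animal. A negative interaction below means that the susceptible difference was lower in NAC than in PFC, and all differences are on the log2 scale with a standard error (SE).

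Astrocytes clear glutamate and potassium from synapses, supply neurons with lactate and lipids, and wrap blood vessels with endfeet. The nucleus accumbens is a reward nucleus of the ventral striatum that is studied widely in social defeat. Cells sorted for a surface epitope still carry RNA of neighbouring cell types, such as myelin fragments and vessel wall, so markers of those cells are reported beside the astrocyte genes. In these bulk samples fewer cells of a type and less RNA per cell cannot be told apart.

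Totals of counts in genes, in megacounts (M), ran from 0.941 M to 21.9 M in NAC control, 7.68 M to 26.8 M in NAC susceptible, 5.80 M to 28.2 M in PFC control and 1.22 M to 18.1 M in PFC susceptible libraries. Counts covered whole gene spans, introns included. The cover of chemosensory receptor genes, which are largely silent in brain, served as the background. It lay between 13.4% and 66.3% of the level that an even spread of counts over all genes would give. Of the 12 PFC libraries in this contrast, 4 stood apart from the rest, control replicates 1 and 2 and susceptible replicates 1 and 2. Their backgrounds were 36.8%, 21.7%, 13.4% and 43.7%. Among these 12 they carried the highest summed levels of mitochondrial DNA, ribosomal protein and pan-neuronal genes, in CPM (counts scaled to a total of 1 M). PFC resilient replicates 1 and 2, outside the contrast, had backgrounds of 24.5% and 19.1%. These resilient libraries stayed in the fit when the 4 were left out. Values without all 4, or without the single library concerned, are given beside the main results that depend on them. Over the 6 susceptible and 6 control pairs of consecutive sample numbers, the NAC minus PFC difference in background was 6.72 points higher in susceptible mice (exact permutation p = 0.561, two-sided). In the log2 of the total the same contrast was 0.92 (exact permutation p = 0.121, two-sided). NAC susceptible replicates 3 and 4 and NAC control replicate 3 had no such partner and were left out of both contrasts. NAC control replicate 3 had the lowest NAC background, 35.8%, and the lowest total, 0.941 M.

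The interaction gave no call. By edgeR's quasi-likelihood test, with Benjamini-Hochberg adjustment over 38171 genes, 0 genes (0%) had an adjusted p under 0.05, and the smallest adjusted p was 1.00, so every gene named below has an adjusted p of 1.00 in that fit. At an unadjusted p under 0.05 there were 528 genes (1.38%), 300 with the higher difference in NAC (0.786%) and 228 with the lower (0.597%), where uniform p-values would give about 1909. DESeq2 and limma-trend on FPKM also called 0 genes, with 782 and 1400 at that unadjusted level, and limma-voom called 1, Acta2, with 1787. Within the regions edgeR called 0 genes (0%) as well, with 507 unadjusted in NAC and 636 in PFC. DESeq2, limma-voom and limma-trend called 0 in both, with 709, 1635 and 1103 unadjusted in NAC and 806, 2205 and 1064 in PFC. Opposite signs of the susceptible difference in the regions were found for 21862 of the 38171 genes (57.3%). They were also found for 516 of the 528 with an unadjusted p under 0.05, a share that the choice of genes with a large interaction itself drives up. The values below are therefore estimates with their errors, for genes named by a set rule, and no gene is a call unless said so.

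The smooth muscle actin gene Acta2 had the smallest p of all genes in the interaction. Its product is the contractile actin of vascular smooth muscle and of contractile pericytes. In mm10 it lies on chromosome 19, 34241090 to 34255590, on the minus strand (ENSMUSG00000035783.9). In NAC its level had a lowest, median and highest value of 10.4, 14.6 and 17.2 CPM in controls and 8.64, 11.0 and 18.2 CPM in susceptible mice. In PFC these values were 9.95, 13.5 and 21.7 CPM in controls and 18.0, 23.1 and 74.5 CPM in susceptible mice. Thus 5 of 6 PFC susceptible libraries lay above every PFC control, while the NAC groups overlapped and their medians had the opposite order. The susceptible difference was -0.25 ± 0.23 (SE) in NAC and 1.13 ± 0.25 in PFC, and the interaction was -1.39 ± 0.34 with a 95% interval from -2.07 to -0.71 (edgeR, adjusted p = 1.00). Limma-voom gave -1.16 with an adjusted p of 0.0307, whereas the smallest adjusted p of any gene under the other alternative fits lay between 0.394 and 1.00. PFC susceptible replicate 1 held the value of 74.5 CPM, and without it the interaction was -0.92. Without the 4 PFC libraries that stood apart it was -1.12.

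The 300 bases around the Acta2 start are shown because elements of this promoter are well studied. The sequence is that of RefSeq on GRCm38.p6, chr19:34255324-34255623, minus strand, 250 bases before to 50 bases after the start position of that table. Capitals mark GGAATG, the MCAT motif, CCTATATGG and CTTGTTTGG, which belong to CArG-type elements read by serum response factor in muscle genes, and TATATAA near the start position.
Acta2: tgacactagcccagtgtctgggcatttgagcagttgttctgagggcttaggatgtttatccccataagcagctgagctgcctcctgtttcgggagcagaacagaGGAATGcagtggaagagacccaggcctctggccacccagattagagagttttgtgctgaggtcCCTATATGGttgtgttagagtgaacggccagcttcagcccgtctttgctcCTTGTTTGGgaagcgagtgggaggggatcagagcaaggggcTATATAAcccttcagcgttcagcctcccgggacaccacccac
The CArG-type letters begin 83 and 33 bases before the start position and do not overlap. TATATAA begins 8 bases after it. All distances are counted from the start position of that table, which was not checked against these reads. It differs from the start of the gene span given above. That span reaches to 34255590, upstream of the table's start position, so all marked letters lie within the span over which reads were counted. Searched on both strands, CCTATATGG was present in 17 of 32851 promoters of that length (0.0517%) and CTTGTTTGG in 91 (0.277%). GGAATG, which begins 146 bases before the start, was present in 14.7% and TATATAA in 3.24%. Of the 59 genes named here that have an entry in the table, Acta2 was the only one with CCTATATGG, and Acta2 and Pde4b held CTTGTTTGG. CCTATATGG and CTTGTTTGG are the exact letters of the Acta2 promoter, so finding them there was fixed by that choice. Their rarity does not tell how many promoters hold CArG-type elements with other letters. These are matches of letters in a window and nothing more.

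Pericyte and smooth muscle genes leaned the same way as Acta2, with 12 of 14 interactions below 0 and a median of -0.41. For comparison, 44.3% of all genes tested and 63.8% of the 13805 genes above background had an interaction below 0, with medians of 0.05 and -0.14. Genes above background are those with a mean FPKM at least 2 times that of the receptor genes. Acta2 itself is in the list. Tagln, which encodes the actin-binding protein transgelin of smooth muscle, had PFC levels of 2.61, 4.73 and 4.78 CPM (lowest, median, highest) in controls and 3.33, 5.87 and 11.6 CPM in susceptible mice. Its interaction was -0.77 ± 0.32, and -0.53 without the 4 PFC libraries. The pericyte growth factor receptor Pdgfrb stood at -0.70 ± 0.46 and the potassium channel regulator Abcc9 at -0.42 ± 0.29, or -0.10 without the 4 PFC libraries. Summed over the list, levels ran from 615 to 772 CPM in NAC control, 636 to 808 in NAC susceptible, 606 to 1226 in PFC control and 727 to 1915 in PFC susceptible libraries, and none of the 14 markers was at 0 in all 27 libraries. The list median was -0.19 without the 4 PFC libraries and -0.22 without PFC susceptible replicate 1.

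**Figure D1:**
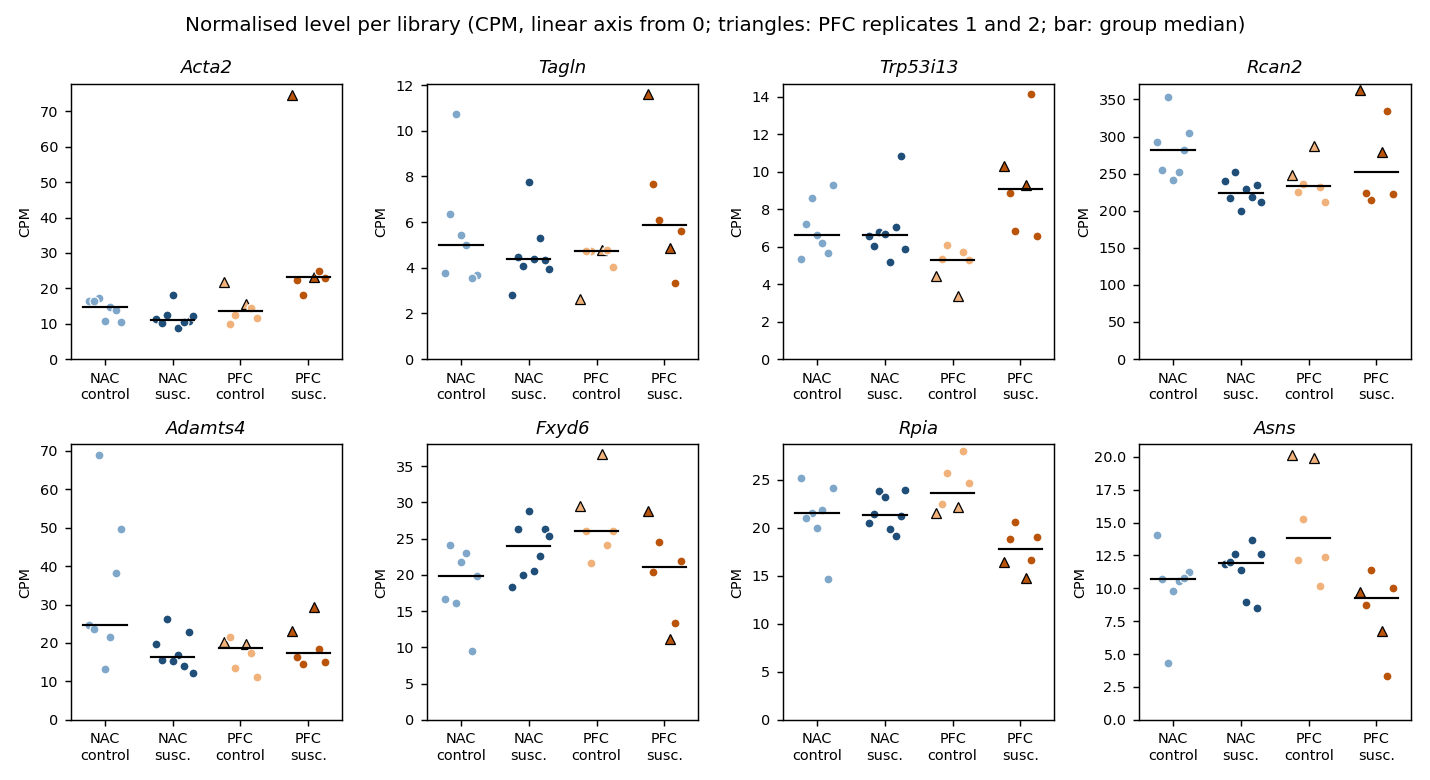
CPM of 8 genes (vertical axes, linear from 0) in each library of the 4 groups, with points for libraries, triangles for PFC replicates 1 and 2 and bars for group medians. Acta2 reaches 74.5 CPM in 1 PFC susceptible library, all 6 PFC susceptible libraries of Trp53i13 lie above the PFC controls, and all 6 of Rpia lie below them.

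Among the other genes with a lower difference in NAC, Trp53i13 and Rcan2 had the smallest p. Trp53i13, a gene induced by p53 (chromosome 11, 77508099 to 77515980), had 5.36, 6.62 and 9.31 CPM (lowest, median, highest) in NAC control and 5.21, 6.62 and 10.8 CPM in NAC susceptible libraries. In PFC it had 3.35, 5.30 and 6.10 CPM in controls and 6.57, 9.09 and 14.2 CPM in susceptible mice, so the PFC groups did not overlap. Of all genes tested, 5 (0.0131%) had every PFC susceptible library above every PFC control and 25 (0.0655%) had every one below, while in NAC the counts were 6 (0.0157%) and 0 (0%). The NAC difference was -0.00 ± 0.18 and the PFC difference 0.80 ± 0.21, with an interaction of -0.80 ± 0.28, or -0.58 without the 4 PFC libraries. Rcan2, a regulator that binds and restrains the phosphatase calcineurin (chromosome 17, 43801351 to 44039516), showed the other form of contrast. Its NAC levels were 242, 282 and 354 CPM in controls and 200, 224 and 252 CPM in susceptible mice, with 7 of 8 susceptible libraries below the lowest control. In PFC they were 211, 233 and 287 CPM against 214, 252 and 363 CPM, and the groups overlapped. The differences were -0.33 ± 0.12 in NAC and 0.18 ± 0.13 in PFC, with an interaction of -0.51 ± 0.18.

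The next genes in this direction by p were Elovl2, Osgin2, Tmem185b, Isoc2a, Adamts4, Eri1 and Gsn. Elovl2, an elongase of very long polyunsaturated fatty acids, stood at -0.15 ± 0.14 in NAC and 0.42 ± 0.16 in PFC (interaction -0.58 ± 0.21), and 5 of 6 PFC susceptible libraries exceeded the highest PFC control of 33.6 CPM. Gsn, which encodes the actin-severing protein gelsolin, stood at -0.29 ± 0.17 and 0.37 ± 0.19 (interaction -0.67 ± 0.26). Adamts4, a protease that cleaves aggrecan-type proteoglycans, differed mainly in NAC. There it had 13.2, 24.8 and 68.8 CPM in controls and 12.1, 16.3 and 26.2 CPM in susceptible mice (-0.88 ± 0.27), against 0.17 ± 0.30 in PFC, where both medians lay between 17 and 19 CPM (17.3 and 18.6). Its interaction was -1.05 ± 0.40, -0.84 without NAC control replicate 3, the library with 68.8 CPM, and -0.29 when principal components of other cell types' markers entered the fit. Isoc2a, an isochorismatase-domain gene, stood at -0.10 ± 0.14 in NAC and 0.46 ± 0.16 in PFC. Eri1, an exonuclease of histone mRNA ends, had an interaction of -1.95 ± 0.74 that came from a single library. NAC control replicate 3, with 0.941 M counts the shallowest library, held 399.9 CPM where the other NAC controls held at most 19.5 CPM, and without it the interaction was -0.01.

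Genes whose estimates had opposite signs, each of at least 0.3, included several with a lower level in NAC and a higher level in PFC. Osgin2, of the oxidative-stress-induced growth inhibitor family, stood at -0.38 ± 0.20 in NAC and 0.44 ± 0.23 in PFC (interaction -0.82 ± 0.31, or -0.51 without the 4 PFC libraries). Tmem185b, a transmembrane protein gene, stood at -0.50 ± 0.30 and 0.72 ± 0.35 (interaction -1.22 ± 0.46). Its NAC levels were 2.56, 3.35 and 4.30 CPM in controls and 1.56, 2.14 and 3.33 CPM in susceptible mice, with 7 of 8 susceptible libraries below the lowest control. Ube2n, a ubiquitin-conjugating enzyme, stood at -0.47 ± 0.22 and 0.33 ± 0.25, and Gabrg1, a gamma subunit of the GABA-A receptor, at -0.38 ± 0.23 and 0.44 ± 0.25. The interaction of Ube2n was -0.79 ± 0.33. It was -0.56 without NAC control replicate 3, which held 70.9 CPM, and -0.53 without PFC susceptible replicate 1. Cfl2, the muscle-type cofilin that cuts actin filaments, stood at -0.38 ± 0.36 and 0.92 ± 0.41. Its interaction of -1.30 ± 0.55 was -0.70 without PFC susceptible replicate 1, which held 22.9 CPM, and -0.44 without the 4 PFC libraries. In these 5 genes the regions' groups overlapped.

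In the other direction Fxyd6 had the smallest p among the genes that the naming rule admits, and Rpia had separated PFC groups. Fxyd6, a small modulator of the sodium pump (chromosome 9, 45370185 to 45396159), had 9.53, 19.9 and 24.2 CPM in NAC control and 18.4, 24.0 and 28.8 CPM in NAC susceptible libraries. In PFC it had 21.6, 26.0 and 36.7 CPM in controls and 11.2, 21.1 and 28.8 CPM in susceptible mice. Hence 4 of 8 NAC susceptible libraries lay above the highest NAC control and 3 of 6 PFC susceptible libraries below the lowest PFC control. The differences were 0.31 ± 0.18 and -0.42 ± 0.20, with an interaction of 0.72 ± 0.27. Rpia, the ribose phosphate isomerase of the pentose phosphate pathway (chromosome 6, 70765720 to 70792232), had 21.5, 23.6 and 28.0 CPM in PFC control and 14.8, 17.8 and 20.6 CPM in PFC susceptible libraries, with no overlap. In NAC its medians were 21.5 and 21.3 CPM, and the interaction was 0.46 ± 0.18. Fxyd6 and Rpia passed the background criterion only narrowly. Their mean FPKM was 0.863 and 0.811, and the criterion is 2 times the mean receptor FPKM of 0.397.

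The remaining genes with the higher difference in NAC, named by the smallest p or by opposite signs, are of unlike kinds. Except for B3galt4 at 1.31, their mean FPKM lay between 0.794 (Wdr31) and 0.914 (Epha10), likewise close to the background criterion. In the opposite direction Gabrg1, Elovl2, Osgin2 and Trp53i13 were close to it as well, at 0.823, 0.843, 0.884 and 0.896. Pak6, a kinase of the p21-activated family, stood at 0.36 ± 0.18 in NAC and -0.29 ± 0.20 in PFC (interaction 0.65 ± 0.26, or 0.41 without the 4 PFC libraries). Gpr83, a G protein-coupled receptor, stood at 0.30 ± 0.19 and -0.38 ± 0.22 (0.68 ± 0.29), with 4 of 8 NAC susceptible libraries above all NAC controls and 4 of 6 PFC susceptible libraries below all PFC controls. Man1c1, a Golgi mannosidase, stood at 0.27 ± 0.13 and -0.19 ± 0.15, with an interaction of 0.46 ± 0.20, or 0.30 without PFC control replicate 2. B3galt4, which adds galactose to gangliosides, stood at 0.61 ± 0.29 and -0.41 ± 0.34, at levels of only 0 to 3.51 CPM. Epha10, an ephrin receptor, and Grm2, a metabotropic glutamate receptor of presynaptic terminals, had interactions of 0.76 ± 0.34 and 0.80 ± 0.39. Both depended on PFC control replicate 2, with 105 CPM of Epha10 and 32.5 CPM of Grm2, and were 0.38 and 0.50 without it, and 0.35 and 0.65 without the 4 PFC libraries. Wdr31 stood at 0.13 ± 0.14 and -0.37 ± 0.16, with an interaction of 0.51 ± 0.22, or 0.31 without the 4 PFC libraries. Tssk4, a testis kinase, Lor, a protein of skin, and Cyp4x1os, antisense to the cytochrome gene Cyp4x1, had interactions of 1.26 ± 0.52, 0.97 ± 0.43 and 1.04 ± 0.40 at no more than 5.50 CPM in any of the 27 libraries, and Tssk4 stood at 0.82 without the 4 PFC libraries. Reads of an antisense gene cannot be told from those of its partner here, since the strand setting of the counting is not given.

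**Figure D2:**
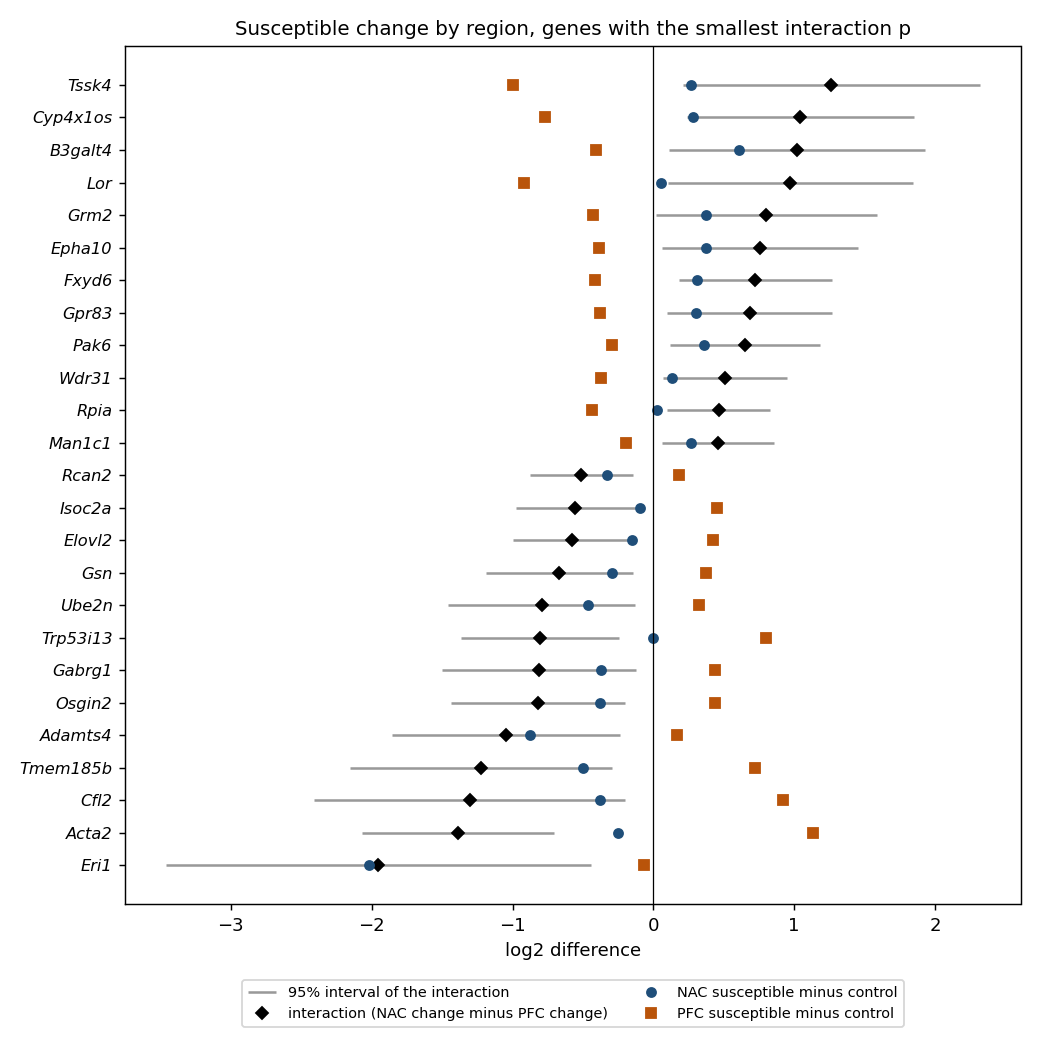
Log2 differences (horizontal axis) of genes named for the smallest interaction p or for opposite signs, with circles for NAC, squares for PFC, diamonds for the interaction and lines for its 95% interval. Acta2 combines a PFC difference of 1.13 with a NAC difference of -0.25, while Adamts4 and Eri1 differ mainly in NAC.

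Oligodendrocyte genes had the lower difference in NAC in 22 of 22 cases, with a median interaction of -0.81. All 22 were lower in NAC susceptible libraries (median -0.69), whereas in PFC 17 of 22 were higher and the median was 0.08. Of the 13805 genes above background, 5666 were lower in NAC and higher in PFC. None passed when adjusted over all genes, and 4 had an unadjusted p under 0.05. Bcas1, a gene of myelinating oligodendrocytes, had 71.6, 106 and 146 CPM in NAC control and 72.5, 80.0 and 110 CPM in NAC susceptible libraries, against PFC medians of 70.4 and 72.1 CPM (interaction -0.52 ± 0.20). Ppp1r14a, an inhibitor of myosin phosphatase found in oligodendrocytes and smooth muscle, stood at -1.23 ± 0.53. Fa2h and Gal3st1, a hydroxylase and a sulfotransferase of myelin lipids, stood at -0.60 ± 0.26 and -0.46 ± 0.22. The factor Olig2, which specifies the oligodendrocyte lineage, had an interaction of -1.31 ± 0.57, made up of -0.37 ± 0.38 in NAC and 0.94 ± 0.43 in PFC. It was -0.75 without the 4 PFC libraries. Its relative Olig1 stood at -1.23 ± 0.72. Olig1 and Olig2 belong to the precursor list, of which 8 of 14 members were below 0 (median -0.13). The summed level of the oligodendrocyte list was 1103 to 5918 CPM in NAC control, 964 to 3708 in NAC susceptible, 892 to 2919 in PFC control and 1172 to 3738 in PFC susceptible libraries, and the groups overlapped. Without the 4 PFC libraries the list median was -0.60, and without PFC susceptible replicate 1 it was -0.55.

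Genes of astrocyte identity were lower in NAC and higher in PFC in 30 of 32 cases. Their median difference was -0.17 in NAC and 0.67 in PFC, and the median interaction was -0.77, with 31 of 32 below 0. All 32 lay above background, 1 had an unadjusted p under 0.05 and none passed. Estimates lower in NAC and higher in PFC were found for 5666 of the 13805 genes above background and 9538 of all 38171 tested. Atp1b2, the gene of the sorted epitope, had 131, 232 and 461 CPM in NAC control and 125, 199.6 and 339 CPM in NAC susceptible libraries. In PFC it had 82.4, 229.7 and 448 CPM in controls and 63.9, 402 and 943 CPM in susceptible mice. The PFC susceptible libraries thus held both the lowest and the highest value of all 4 groups. The interaction of Atp1b2 was -0.98 ± 0.71. The glutamate transporter Slc1a3 stood at -0.89 ± 0.69, the endfoot water channel Aqp4 at -1.04 ± 0.71, the folate enzyme Aldh1l1 at -0.43 ± 0.30 and the growth factor receptor Fgfr3 at -1.07 ± 0.65. The bicarbonate cotransporter Slc4a4 stood at -0.60 ± 0.38. Gpc5, a glypican of astrocytes, had the smallest p of the list (-0.68 ± 0.33). The summed level of the list ran from 6976 to 20211 CPM in NAC control, 6156 to 16738 in NAC susceptible, 4413 to 15431 in PFC control and 3580 to 30191 in PFC susceptible libraries. The list median was -0.66 without the 4 PFC libraries and -0.52 without PFC susceptible replicate 1, without which Atp1b2 stood at -0.63 and Aqp4 at -0.54. The part that the yield of the sort has in these values was not tested.

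Most genes of 3 astrocyte transport lists also had an interaction below 0. Of 13 genes of glutamate uptake and recycling, 10 had an interaction below 0 (median -0.72). Among them the transporter Slc1a2 stood at -0.94 ± 0.65, the glutamine transporter Slc38a3 at -0.89 ± 0.55 and the metabotropic receptor Grm3 at -0.85 ± 0.50. For GABA and betaine transport it was 9 of 10 (median -0.36), with the GABA-degrading enzyme Abat at -0.40 ± 0.23. The betaine transporter Slc6a12 was higher in both regions, at 0.25 ± 0.14 in NAC and 0.57 ± 0.16 in PFC, with an interaction of -0.32 ± 0.21. Of 11 endfoot water and potassium channel genes 9 were below 0 (median -0.45), including the potassium channel Kcnj10 at -0.82 ± 0.48, or -0.46 without the 4 PFC libraries. Without PFC susceptible replicate 1 the medians of these lists were -0.48, -0.33 and -0.22. With principal components of other cell types' markers in the fit they were -0.06, -0.07 and -0.03. Reactive astrocyte genes had a median of -0.11, with 13 of 22 below 0, and it was 0.05 without the 4 PFC libraries. No member of these 4 lists passed, and 1, Gabrg1, had an unadjusted p under 0.05.

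**Figure D3:**
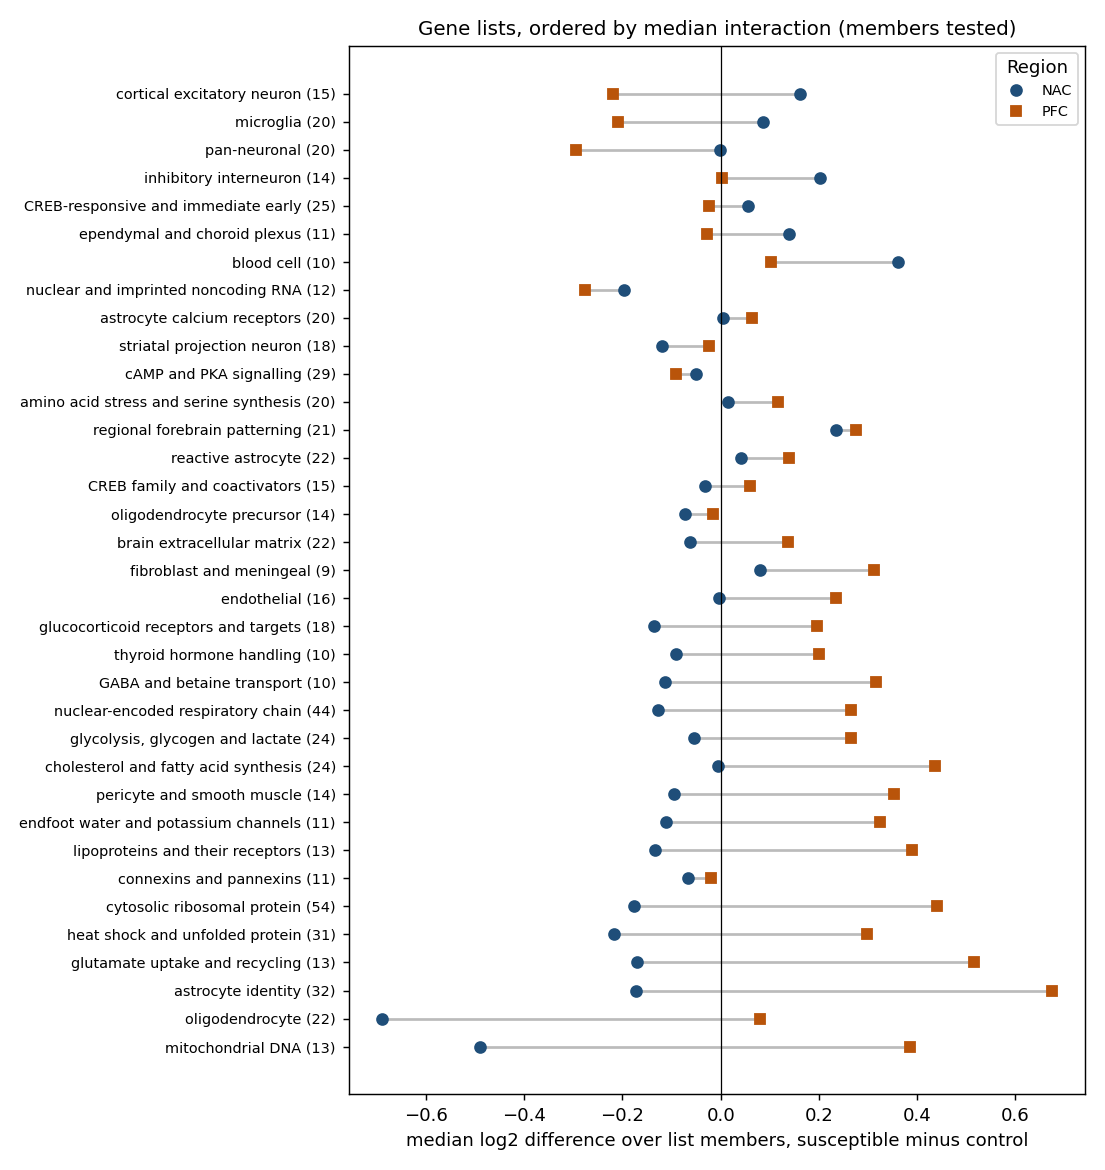
Median susceptible minus control log2 difference over the members of each of 35 gene lists (horizontal axis) in NAC (circles) and PFC (squares), ordered by median interaction. Mitochondrial DNA, oligodendrocyte and astrocyte identity lists lie lowest, with NAC medians of -0.49, -0.69 and -0.17 and PFC medians of 0.39, 0.08 and 0.67.

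Genes encoded by mitochondrial DNA gave the lowest list median. All 13 were lower in NAC susceptible libraries (median -0.49) and higher in PFC susceptible libraries (median 0.39), and the median interaction was -0.87. The same signs were found for 5666 of the 13805 genes above background. The cytochrome oxidase gene mt-Co1 had 533, 973 and 1616 CPM in NAC control, 322, 613 and 1012 CPM in NAC susceptible, 350, 625 and 2027 CPM in PFC control and 370, 879.8 and 3141 CPM in PFC susceptible libraries (interaction -0.92 ± 0.69, or -0.44 without PFC susceptible replicate 1). Its groups overlapped in both regions, although 4 of 8 NAC susceptible libraries lay below the lowest NAC control. Respiratory chain subunits encoded in the nucleus had 43 of 44 interactions below 0, with a median of -0.38. Cytosolic ribosomal protein genes had 52 of 54 below 0 and a median of -0.59, with Rps9 at -1.11 ± 0.64 and Rps12 at -1.12 ± 0.71. Rps9 stood at -0.83 and Rps12 at -0.40 without the 4 PFC libraries, and without PFC susceptible replicate 1 Rps9 stood at -0.53. None of the genes in these 3 lists had an unadjusted p under 0.05. PFC susceptible replicate 1 bore on all 3 lists: without it the medians were -0.40, -0.06 and -0.10, and without PFC control replicate 2 they were -1.22, -0.66 and -0.93. Without the 4 PFC libraries they were -0.65, -0.22 and -0.34.

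Chaperones and lipid synthesis genes had medians of -0.61 and -0.39. Of 31 heat shock and unfolded protein genes 27 were below 0, and the small heat shock protein Hspb8 stood at -0.63 ± 0.30, with Cryab, the lens and glial crystallin, at -1.05 ± 0.58. In PFC 3 of 6 susceptible libraries of Hspb8 exceeded the highest control of 22.3 CPM, and in NAC its medians were 14.0 and 12.1 CPM. All 24 genes of cholesterol and fatty acid synthesis were below 0 and higher in PFC susceptible libraries, while in NAC 12 were higher and 12 lower. The desaturase Scd1 stood at -0.96 ± 0.48 and the fatty acid synthase Fasn at -0.95 ± 0.61. Without PFC susceptible replicate 1 these list medians were -0.04 and -0.17, and with PFC control replicate 2 left out they were -0.86 and -0.59. Without the 4 PFC libraries they were -0.48 and -0.24, with Hspb8 at -0.30, Cryab at -0.61 and Scd1 at -0.58.

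**Figure D4:**
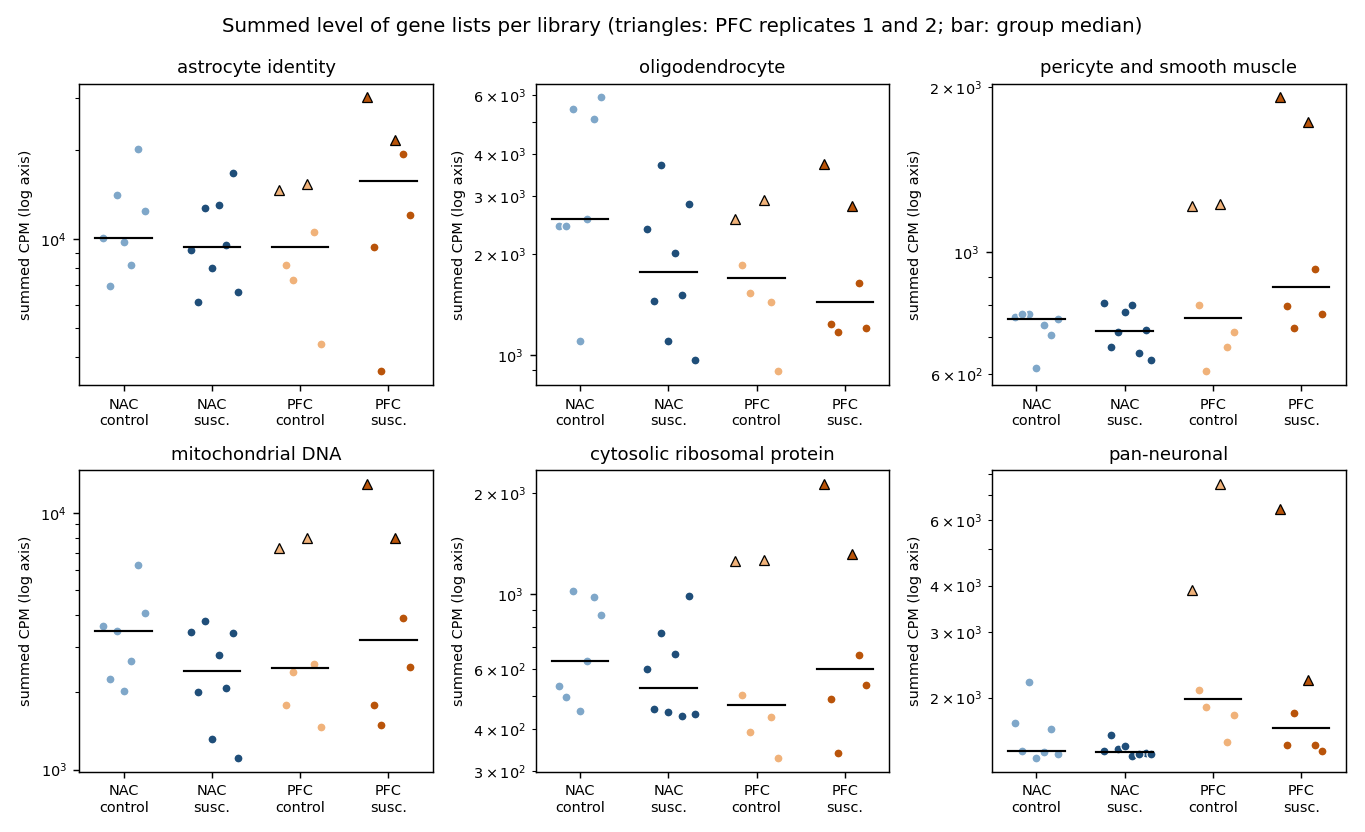
Summed CPM of 6 gene lists (vertical axes, log scale) in each library of the 4 groups, with triangles for PFC replicates 1 and 2 and bars for group medians. The triangles lie above the other PFC libraries for mitochondrial DNA, ribosomal protein and pan-neuronal genes, and 4 of the 12 PFC libraries are triangles.

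Marker lists of other cell types did not all lean the same way. Median interactions were -0.81 for oligodendrocyte, -0.41 for pericyte and smooth muscle and -0.31 for endothelial genes. They were 0.36 for microglial, 0.26 for pan-neuronal and 0.44 for cortical excitatory neuron genes. When 2 principal components of the markers of cell types other than astrocytes entered the fit, the list median was -0.02 for astrocyte identity, 0.08 for mitochondrial DNA, 0.02 for ribosomal proteins, -0.01 for chaperones, 0.01 for lipid synthesis and -0.03 for oligodendrocyte genes, whose own markers are part of those components. The median over the genes above background was 0.01 in that fit, against -0.14 without the components. Acta2 and Tagln are likewise among the pericyte and smooth muscle markers from which the components were made, so that fit is no independent adjustment for them. In it Acta2 stood at -1.21, Tagln at -0.80, Trp53i13 at -0.55 and Asns at 0.56. Other named genes lost more of their main value there. Rcan2 stood at -0.26, Gabrg1 at -0.14 and Fgfr3 at -0.13. Olig2, Fa2h and Penk, which are also among the markers used, stood at -0.20, -0.18 and -0.02. With the background percent as a covariate the medians of the astrocyte identity, mitochondrial DNA and ribosomal protein lists were -0.50, -0.53 and -0.29.

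Asns, the enzyme that makes asparagine and is induced when amino acids run short, had the smallest p of its list of 20 genes of amino acid stress and serine synthesis. It lies on chromosome 6, 7675169 to 7693254. Its mean FPKM of 0.62 did not reach the background criterion. In PFC it had 10.2, 13.8 and 20.1 CPM in controls and 3.33, 9.25 and 11.4 CPM in susceptible mice, with 5 of 6 susceptible libraries below the lowest control. In NAC it had 4.30, 10.7 and 14.1 CPM against 8.51, 11.9 and 13.7 CPM, and the groups overlapped. The differences were -0.76 ± 0.21 in PFC and 0.11 ± 0.18 in NAC, with an interaction of 0.86 ± 0.28. It was 0.53 without the 4 PFC libraries. The serine synthesis enzymes Phgdh and Psat1 stood on the other side, at -0.77 ± 0.39 and -0.52 ± 0.29, and the list median was -0.06 with 11 of 20 below 0. The promoter is printed because it carries a known element for this response, TGATGAAAC, in capitals together with CGTCA, the reverse complement of TGACG, the core of the CRE. It comes from RefSeq on GRCm38.p6, chr6:7693160-7693459, minus strand.
Asns: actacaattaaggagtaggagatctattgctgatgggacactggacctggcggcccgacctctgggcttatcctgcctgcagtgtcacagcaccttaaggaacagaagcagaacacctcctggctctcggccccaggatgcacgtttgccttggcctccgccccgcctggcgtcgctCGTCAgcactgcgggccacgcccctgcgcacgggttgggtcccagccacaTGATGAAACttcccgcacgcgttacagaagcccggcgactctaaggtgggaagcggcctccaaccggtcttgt
TGATGAAAC begins 23 bases before the start position and was found in 81 of 32851 promoters (0.247%), both strands searched, among them no other gene named here. The gene span given above reaches to 7693254, upstream of that start position. TGATGAAAC therefore lies within the span, and CGTCA lies upstream of it. TGATGAAAC was searched because it is the known element of this promoter, so finding it here was fixed by that choice. TGACG was found in 20.8%.

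Of 20 microglial genes 17 had an interaction above 0 (median 0.36), with none at an unadjusted p under 0.05 and only 10 of the 20 above background. The median was 0.04 under limma-voom, with 10 of 20 below 0, and 0.07 with marker components in the fit. The adhesion ligand Selplg stood at 0.68 ± 0.34, or 0.36 without the 4 PFC libraries. Below the background criterion, the lysosomal membrane protein gene Laptm5 stood at 0.62 ± 0.31 and the fractalkine receptor Cx3cr1 at 0.34 ± 0.21. The microglial sum was 280.0 to 439.7 CPM in NAC control, 316 to 365 in NAC susceptible, 299 to 456 in PFC control and 345 to 409 in PFC susceptible libraries, and the median was 0.17 without the 4 PFC libraries. Pan-neuronal genes had 17 of 20 above 0 (median 0.26) and cortical excitatory neuron genes 12 of 15 (median 0.44). Neurod2, a factor of excitatory neurons, stood at 1.37 ± 0.74, and ran from 0.67 without PFC control replicate 2 to 1.92 without PFC susceptible replicate 1. The vesicular glutamate transporter Slc17a7 stood at 1.35 ± 0.88, and at 0.45 and 2.62 without the same libraries. Both neuronal medians depended on single libraries: without PFC control replicate 2 they were -0.26 and -0.06, and without PFC susceptible replicate 1 they were 0.92 and 0.88. In the first case 14 of 20 pan-neuronal genes were below 0. Without the 4 PFC libraries the medians were 0.19 and 0.37. Striatal projection neuron genes had 12 of 18 below 0 (median -0.02), with the phosphatase inhibitor Ppp1r1b at -0.85 ± 0.43 and the opioid precursor Penk at -1.51 ± 0.80, or -0.86 without NAC control replicate 3. Of the blood cell list, the neutrophil gene S100a8 stood at 1.48 ± 0.65 at no more than 1.77 CPM and below the background criterion. The haemoglobin genes Hba-a1 and Hba-a2, near-identical copies that share reads, stood at -1.53 ± 1.07 and -1.78 ± 0.99.

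The title of the series names CREB in astrocytes of the nucleus accumbens, so its family was followed by itself. CREB is a transcription factor that is activated by cAMP-dependent kinase and binds the CRE motif. Creb1 (chromosome 1, 64532645 to 64604548) had 42.7, 52.3 and 86.1 CPM in NAC control and 38.7, 52.9 and 60.4 CPM in NAC susceptible libraries, and 41.4, 49.2 and 83.0 CPM against 38.0, 61.1 and 99.6 CPM in PFC. All groups overlapped, and the interaction was -0.42 ± 0.27 with a 95% interval from -0.96 to 0.13, or -0.25 without PFC susceptible replicate 1. Creb1 and Crem, with mean FPKM of 0.765 and 0.608, lay below the background criterion, and Atf1 lay above it. Crem and Atf1 stood at -0.09 ± 0.19 and 0.06 ± 0.19, and both took the other sign under some alternatives. The coactivator Crebbp stood at -0.50 ± 0.37, and at -0.21 without PFC susceptible replicate 1 and -0.78 without PFC control replicate 2. The CREB family had a median of -0.11 and 9 of 15 below 0, and it was 0.05 without PFC susceptible replicate 1. Of 29 cAMP and protein kinase A genes 16 were below 0 (median -0.02), and the phosphodiesterase Pde8a stood at -0.48 ± 0.22. CREB-responsive and immediate early genes had 16 of 25 above 0 (median 0.19), with Nr4a3 at 0.48 ± 0.26, Fosl2 at 0.55 ± 0.34, the neurotrophin Bdnf at 0.35 ± 0.25 and the phosphodiesterase Pde4b at -0.60 ± 0.40. Bdnf lay below the background criterion. Without PFC control replicate 2, Nr4a3 stood at 0.27, Fosl2 at 0.23 and Bdnf at 0.18, and without PFC susceptible replicate 1 Pde4b stood at -0.32. The list median was 0.00 without the 4 PFC libraries and -0.34 without PFC control replicate 2. The full CRE, TGACGTCA, was in the promoter of 1 of the 59 named genes with an entry, Rps9, and in 1.79% of all promoters.

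Hormone-related genes gave mixed values. Dio3, the deiodinase that inactivates thyroid hormone, had 0, 0.357 and 0.886 CPM in NAC control and 0.182, 0.941 and 1.43 CPM in NAC susceptible libraries, with 5 of 8 above the highest control. In PFC it had 0.402, 0.838 and 1.81 CPM in controls and 0, 0.344 and 0.788 CPM in susceptible mice. Its interaction of 2.27 ± 0.75 had opposite signs in the regions, 1.07 ± 0.49 and -1.19 ± 0.57. It rests on a gene of at most 1.81 CPM whose mean FPKM of 0.326 lay below the background criterion. Dio3 had the highest interaction of the 10 thyroid hormone handling genes, of which 7 were below 0 (median -0.36). That list median was -0.08 without PFC susceptible replicate 1. The thyroid hormone binding protein Crym stood at -1.04 ± 0.53, and ran from -1.23 to -0.66 with 1 library left out. PFC susceptible replicate 5 held 44.6 CPM of Crym, and the next PFC susceptible library held 20.8 CPM. Glucocorticoid receptors and targets had 14 of 18 below 0 (median -0.34), with the glucocorticoid-induced chaperone partner Fkbp5, below the background criterion, at 0.32 ± 0.18. That median was -0.15 without PFC susceptible replicate 1 and 0.04 with marker components in the fit, where 8 of 18 were below 0. The other 11 lists had medians from -0.54 for connexins and pannexins to 0.20 for inhibitory interneurons.

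The same contrast for resilient in place of susceptible mice uses the same control libraries, so the values are only set side by side. Acta2 stood at 0.03 ± 0.36 in the resilient contrast against -1.39 ± 0.34 in the susceptible one, and Tagln at -0.04 against -0.77. Adamts4 stood at -1.25 against -1.05, Rcan2 at -0.39 against -0.51, Trp53i13 at -0.66 against -0.80 and Fxyd6 at 0.30 against 0.72. Atp1b2 stood at -1.51 against -0.98, and Bcas1 at -0.63 against -0.52. PFC resilient replicates 1 and 2, with low backgrounds of 24.5% and 19.1%, are part of the resilient values. The difference between these contrasts was not tested.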

How the data were processed

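The authors deposited whole-number counts per gene, made with featureCounts on mm10 per the submitters' processing notes, and a table of FPKM. The sources used here do not give the aligner, the annotation or whether strand was used. The implied gene length of the deposited FPKM equals the whole GENCODE M21 gene span for 54229 of 54229 genes compared, so intronic reads count. Libraries came from low-input total RNA without poly(A) selection, per the labels' protocols. Counts were fitted with edgeR 4.0.16 (R 4.3.3; TMM scaling, filterByExpr, robust quasi-likelihood test, Benjamini-Hochberg adjustment at 0.05) over all 39 libraries in 6 groups, and 38171 of 55401 genes were tested. Resilient libraries entered for the spread. DESeq2 1.42.0, limma 3.58.1 (voom with library weights, and trend on log2(FPKM + 0.5)) and other settings were alternatives. The contrast, genes and lists were chosen with earlier results of these data known. Genes were named from candidates with an average log2 CPM above 1, at least 2 times the receptor background and a named symbol: per direction the 10 smallest p, the 5 smallest with opposite signs of at least 0.3, up to 4 members per list (without these limits), and 7 further genes, Creb1, Crem, Atf1, Atp1b2, Aldh1l1, Aqp4 and Slc1a3. The fit was tested on simulated data with a common mean per gene in all groups, apart from planted changes. Those data held no differences in background or cell content between libraries, so the test cannot speak for the PFC libraries that stood apart. Some list members are counted in their lists but not reported singly here. Each library has its own mouse number, but no label describes separate cohorts, so p-values measure the spread between these libraries.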

Additional observations from a re-analysis of the deposited data

Results flagged for a closer look

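The search covered 328 sets, each of 1 gene, the background percent or the total counts in 1 group. Of these, 29 had a highest or lowest library whose gap to its neighbour passed Dixon's 95% critical value, all of them for genes. Chance alone passes that test in about 1 of 20 sets. Values are in CPM. NAC control replicate 3, the shallowest library, was highest for Eri1 (399.9), Ube2n (70.9), Penk (67.7) and Tagln (10.7) and lowest for Neurod2 (0). NAC control replicate 6 was highest for Gpc5 (3377), Grm3 (1339) and Osgin2 (26.8) and lowest for Cx3cr1 (60.7) and Gpr83 (3.71). PFC control replicate 2 was highest for Man1c1 (206), Bdnf (44.8), Grm2 (32.5), Crym (27.3) and Tmem185b (5.90). PFC susceptible replicate 1 was highest for Slc17a7 (231), Acta2 (74.5), Epha10 (64.4) and Neurod2 (16.1).

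The remaining sets were spread over 9 libraries. In NAC susceptible libraries, replicate 2 was highest for Eri1 (19.9), replicate 4 for Trp53i13 (10.8), replicate 6 for S100a8 (1.77), replicate 7 for Acta2 (18.2) and replicate 8 for Tssk4 (3.42). In PFC control libraries, replicate 1 was lowest for Tagln (2.61) and highest for mt-Nd4l (4.02), replicate 4 was lowest for Pde8a (94.97) and replicate 6 was highest for Gpr83 (13.4). PFC susceptible replicate 5 was highest for Crym (44.6).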

How the results depend on the processing

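The interaction gave 0 calls under the edgeR settings and DESeq2, 1 under limma-voom (Acta2), and 528 at an unadjusted p under 0.05. Within NAC the unadjusted count was 507. Within PFC it was 636, and 1 gene passed with marker components as covariates (Acta2, 0.98, adjusted p = 0.0346). The 516 genes with an unadjusted interaction p under 0.05 and opposite signs in the regions became 1254 with no count filter, 1647 under limma-voom, 1390 under limma-trend, 1126 with the background percent as a covariate, 297 over genes above background and 305 without PFC replicates 1 and 2 (chosen after seeing the data). Leaving out 1 library gave 311 (without PFC susceptible replicate 2) to 1410 (without PFC susceptible replicate 3), with 1020 without PFC control replicate 2. The cause was not tested. Atf1 turned to -0.0065 under limma-voom and -0.025 without PFC replicates 1 and 2, and ran from -0.047 (without PFC control replicate 2) to 0.14 with 1 library left out. Crem turned to 0.00070 under limma-trend. Marker components turned Atp1b2 to 0.046, Crem to 0.011, Eri1 to 0.034, Kcnj10 to 0.0046, Rps12 to 0.018, Slc1a3 to 0.091 and mt-Nd4l to 0.071, and the consecutive-number block turned the named gene Eri1 to 0.0069. Acta2 was negative in every setting run, from -1.53 to -0.83. Of the 35 list medians, 13 kept their sign in all 42 settings, 12 of them below 0. The median over all genes was 0.12 with library totals alone and 0.11 under limma-trend, against 0.05.

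Replicate numbers paired the samples in part at most: deviations correlated above 0.1 in 4 of 7, 1 of 6, 1 of 6, 3 of 6, 2 of 6 and 5 of 6 pairs for the 6 pairs of groups. The 5 of 6 were PFC control with PFC susceptible libraries (median over all their pairs 0.026). The 4 of 7 were NAC control with NAC susceptible libraries (median -0.017). For consecutive sample numbers, deviations correlated above 0.1 in 2 of 6 control and 4 of 6 susceptible pairs. The median over all pairs was 0.15 for control, itself above 0.1, and -3.2e-06 for susceptible libraries. The replicate block gave 0 calls and 537 genes at an unadjusted p under 0.05, and the consecutive-number block 0 and 795. Acta2 stood at -1.29 and -1.22 under these blocks. The consecutive-number block was run only for the interaction. The 2 shallowest libraries, at 0.941 M and 1.22 M counts, limit precision for genes of few CPM.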
